A study of Mus musculus with 3 samples.

Results

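The ET4 external tufted cells were 883 nuclei of the mouse olfactory bulb (OB), taken as all nuclei that the authors' table of nuclei assigns to subcluster 3 of the projection neurons. They were 883 of 7504 subclustered nuclei and of 31703 nuclei listed in all. Mouse 1 gave 225 of them, mouse 2 gave 552 and mouse 3 gave 106. The deposited table numbers the subclusters and names none. The name ET4, and the names T1, M1, M2, M3, ET1 and ET2 of the 6 subclusters used for comparison, follow the study's marker genes, which were chosen on these same nuclei. All 3 mice were adult C57Bl/6 animals with the same treatment. Each had received retroAAV-CAG-H2B-GFP, a virus taken up by axon endings that marks the nucleus green, in the piriform cortex (PCx) and the anterior olfactory nucleus (AON). Green nuclei stained with the DNA dye DRAQ5 were sorted and counted in 1 droplet library per mouse. The CAG promoter is active in most cell types, and nuclei of interneurons and glia are also listed. No mouse went without the virus, so that every comparison below is between subclusters of the same 3 mice.

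Mitral and tufted cells are the glutamatergic output neurons of the OB. External tufted cells lie next to the glomeruli, receive direct input from olfactory sensory axons, fire rhythmic bursts of action potentials and excite the local interneurons of the glomerulus. Of the markers given with ET4, Ly6g6e encodes a small membrane-anchored protein of the Ly6 family, some of whose members bind nicotinic acetylcholine receptors. Foxo1 is a forkhead transcription factor that insulin and growth factor signalling keeps out of the nucleus. Pip5k1b is a lipid kinase that makes phosphatidylinositol 4,5-bisphosphate, the substrate of phosphoinositide 3-kinase.

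Levels are given as CPM, the unique molecular identifiers (UMIs) of a gene per 1000000 UMIs summed over the ET4 nuclei of a mouse. The sums held 2508004, 5843967 and 1431471 UMIs in mice 1, 2 and 3. CPM takes no account of gene length, so levels are compared between subclusters and not between genes. The median ET4 nucleus held 10419 UMIs from 3332 genes, below the medians of all other subclusters compared except M3, which ranged from 5915 (M3) to 20781 UMIs (M2). Log2 differences carry a standard error (SE) from a negative binomial fit over 21 libraries, 7 subclusters in each of 3 mice. A gene was called when its adjusted p fell under 0.05 and its difference exceeded 1 on the log2 scale. The subclusters had been formed from these counts, so a call describes a cluster and is no test of it. M1 had 14 nuclei in mouse 1. Barcodes occurred in more than 1 mouse 39, 8 and 35 times for the 3 pairs of mice, and 0 of them were ET4 in both.

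The levels of the markers given with ET4 are described first. These markers were chosen on these same nuclei, so that high levels in ET4 are a description and no check of the label. In ET4, Ly6g6e stood at 919, 492 and 567 CPM in mice 1, 2 and 3. In the next highest subcluster, ET1, its mean was 62.9 CPM, and no other library of any subcluster passed 104 CPM. All 3 ET4 libraries therefore lay above all 18 others, with a log2 difference of 5.53 ± 0.24 (SE) from the mean of the 6 other subclusters. Foxo1 stood at 400, 359 and 338 CPM in ET4, against means of 133 CPM in M3, 51.3 CPM in ET1 and 5.36 CPM in M2. Its ET4 libraries did not overlap with the others either (4.03 ± 0.10). Pip5k1b stood at 1892, 2028 and 1938 CPM, against 639 CPM in ET1 and 11.1 CPM in T1 (5.49 ± 0.14). ET1 was nearest to ET4 for Ly6g6e and Pip5k1b, and M3 for Foxo1.

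**Figure D1:**
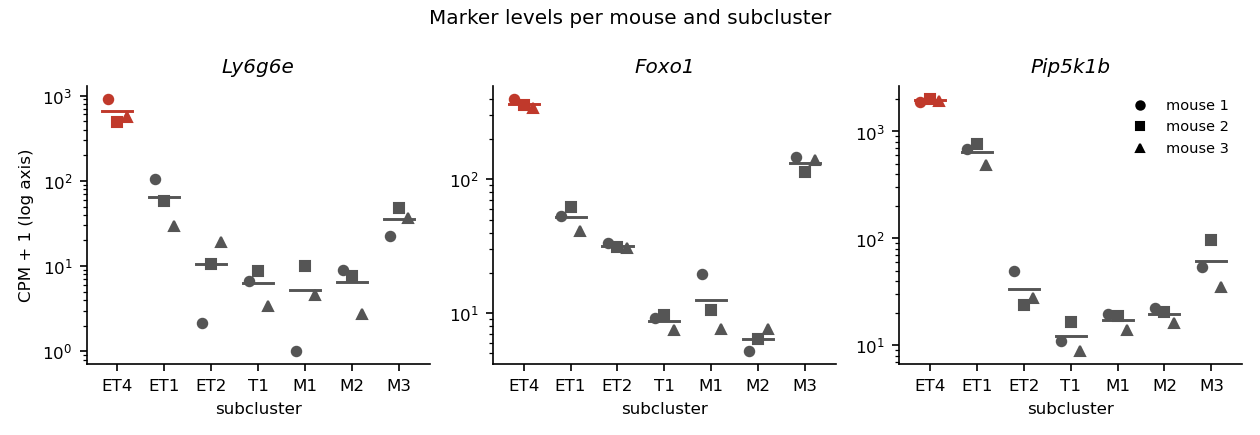
Level of Ly6g6e, Foxo1 and Pip5k1b in each of the 7 subclusters, as CPM + 1 on a log axis. Marker shapes stand for the 3 mice and the short line for their mean; the ET4 libraries are the highest for all 3 genes, and ET1 comes next for Ly6g6e and Pip5k1b and M3 for Foxo1.

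The markers were also read in single nuclei. At full depth a UMI of both Ly6g6e and Foxo1 was found in 645 of 883 ET4 nuclei (73.0%), and 24 nuclei had neither. Of the 703 ET1 nuclei, 82 (11.7%) had both. With Pip5k1b added, 637 ET4 nuclei (72.1%) had all 3 markers and 0 had none of them. Because depth differed between subclusters, each nucleus was also thinned to 3000 UMIs, which left out 3 ET4 nuclei. It also left out 68 of 326 M3 nuclei and 161 of 1136 nuclei in the cluster that carries astrocyte markers. Thinned shares in M3 and in that cluster thus come from their deeper nuclei. Ly6g6e and Foxo1 then occurred together in 356 of 880 ET4 nuclei (40.5%) and in 9 of 700 ET1 nuclei (1.29%), and all 3 markers in 333 ET4 nuclei (37.8%). Ly6g6e was then found in 66.5% ± 7.93 of ET4 nuclei (SD, n = 3 mice), against 11.5% of ET1 nuclei and 4.3% of nuclei in the cluster that carries astrocyte markers. Foxo1 was found in 59.2% ± 4.17, against 22.8% in M3 and 18.3% in the astrocyte cluster. Pip5k1b was found in 94.2% ± 2.41, against 63.4% in ET1 and 6.6% in the astrocyte cluster. Without thinning the ET4 shares were 85.3%, 86.2% and 97.6% for Ly6g6e, Foxo1 and Pip5k1b, and those of the astrocyte cluster, with a median of 5211 UMIs, were 6.83%, 26.8% and 9.64%. Of the 3 genes, Foxo1 had the largest share in the astrocyte cluster.

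ET4 took different shares of the projection neurons in the 3 mice. In mouse 1 it made up 15.7% of the nuclei of the 7 subclusters, with an exact Clopper-Pearson 95% interval of 13.8 to 17.7. The share was 15.9% (14.7 to 17.2) for mouse 2 and 7.32% (6.03 to 8.79) for mouse 3. The mean was 13.0% ± 4.90 (SD, n = 3 mice). The intervals of mice 1 and 2 overlap and that of mouse 3 lies below both. Of all listed nuclei, however, ET4 made up 3.85% (3.37 to 4.37), 2.62% (2.40 to 2.84) and 2.23% (1.83 to 2.69), so that mouse 1 lay above mice 2 and 3, whose intervals overlap. They cover counting error only.

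The glutamate transporters set ET4 apart from most other projection neurons. Slc17a6, the vesicular glutamate transporter VGLUT2, stood at 314, 250 and 268 CPM in ET4, and Slc17a7, the transporter VGLUT1, at 138, 92.1 and 79.6 CPM. The means of Slc17a6 in the other subclusters were 258 CPM in ET2, 104 CPM in M3, 81.8 CPM in M1, 44.4 CPM in ET1, 17.6 CPM in T1 and 12 CPM in M2. ET4 and ET2 overlapped and stood above the rest. For Slc17a7 every other library lay above ET4, between 190 and 517 CPM. Against the 6 others, Slc17a6 was higher by 2.26 ± 0.11 and Slc17a7 lower by 1.66 ± 0.17 on the log2 scale. At 3000 UMIs, Slc17a6 was found in 51.9% ± 1.34 and Slc17a7 in 21.6% ± 6.62 of ET4 nuclei (SD, n = 3), against 2.59% and 7.82% in the astrocyte cluster. At full depth 370 of 883 ET4 nuclei (41.9%) had UMIs of both transporters, 346 of Slc17a6 alone, and 94 of neither.

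The projection neuron markers split. Of 8 listed genes 2 were called higher and 3 lower in ET4, beside 8.72% of all 14696 tested genes called higher and 9.32% called lower. Eomes, the T-box factor Tbr2 of glutamatergic OB neurons, stood at 512, 366 and 309 CPM, above all other libraries, the next highest being ET1 at a mean of 216 CPM. Tbx21, the T-box factor Tbet that is widely used as a mitral and tufted cell marker, stood at 0, 2.05 and 4.89 CPM, against 3.90 CPM in ET1 and 21.8 to 86.9 CPM in the other subclusters. Reln, the secreted protein reelin, stood at 58.6, 70.5 and 106 CPM, and no other library had less than 711 CPM. Its log2 difference of -4.56 ± 0.19 was among the 15 largest on the lower side, with symbols of the Gm type or similar left out. Tbx21 was found in 0.44% of thinned ET4 nuclei and 0.85% of astrocyte nuclei, and Reln in 11.8% and 13.4%, so that neither share in ET4 was above that of the astrocyte cluster. Cdhr1 (298, 198 and 235 CPM), Tbr1 (27.5, 29.6 and 27.2 CPM) and Thy1 (49.4, 48.4 and 35.6 CPM) were not called.

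**Figure D2:**
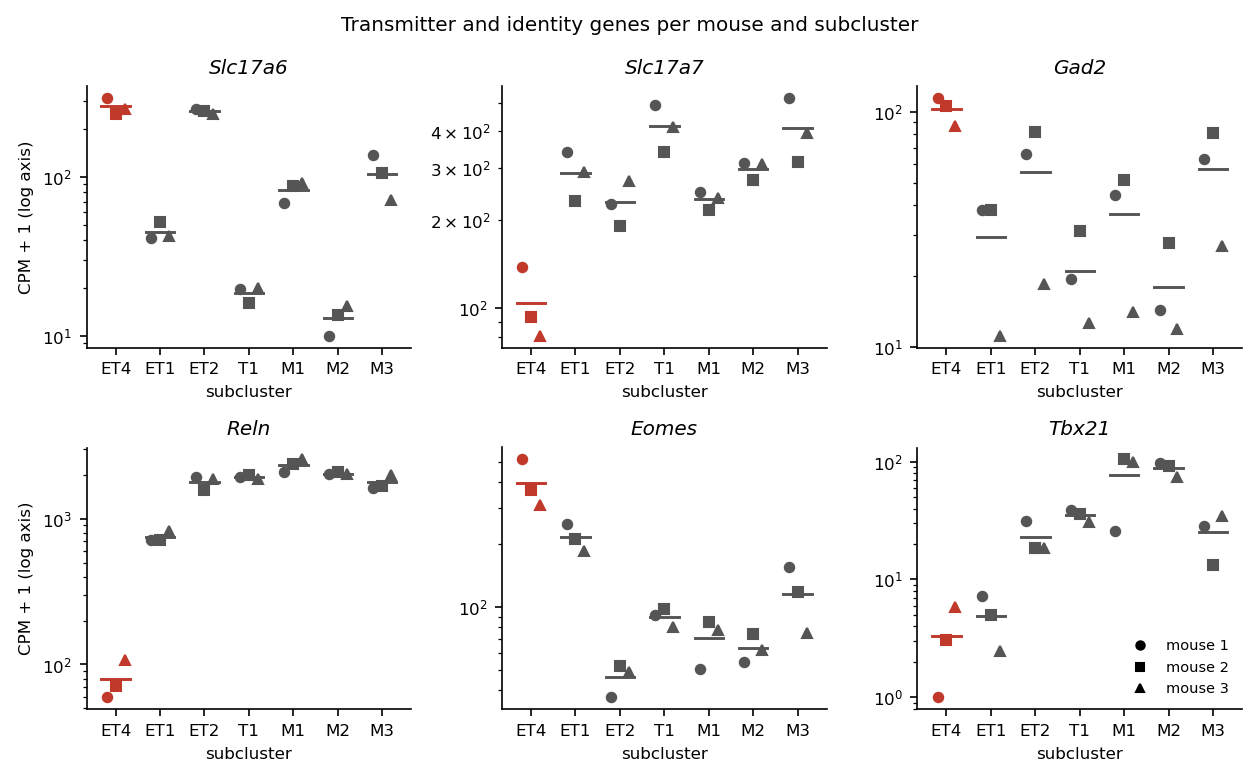
Level of Slc17a6, Slc17a7, Gad2, Reln, Eomes and Tbx21 in each subcluster, as CPM + 1 on a log axis, with shapes for mice and lines for means. ET4 lies above the other subclusters for Eomes and Gad2, next to ET2 for Slc17a6, and below all others for Slc17a7 and Reln.

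Markers of other cell types were read over whole lists. Of 9 inhibitory neuron markers only Gad2, a synthesis enzyme for GABA, was called, at 113, 104 and 85.9 CPM in ET4 and at most 80.5 CPM in the 18 other libraries. Gad1, the other synthesis enzyme, stood at 35.5, 88.8 and 31.4 CPM, and Slc32a1, the vesicular GABA transporter, at 5.18, 28.2 and 6.29 CPM. In all 3 mice Gad2 had more UMIs than Gad1 in ET4, at ratios of 3.19, 1.17 and 2.73, while in the nuclei outside the projection neurons the ratio was 0.476, 0.479 and 0.449. In the other compared subclusters the ratio ran from 0.373 to 0.783, except in M1 of mouse 1. There it was 1.17, from 7 UMIs of Gad2 and 6 of Gad1. At 3000 UMIs, however, Gad2 was found in 22.2% ± 4.5 of ET4 nuclei and 18.1% ± 9.8 of nuclei in the astrocyte cluster (SD, n = 3 mice), which overlap. In the other compared subclusters the mean share of Gad2 ran from 5.56% in M2 to 12.7% in M3. Gad1 was found in 14.1% of ET4 nuclei and 34.1% of nuclei in the astrocyte cluster. Summed over the 9 genes, inhibitory markers came to 215, 438 and 178 CPM in ET4 and to means between 130 and 572 CPM in the others. Mouse 2, with the highest Gad1 and Slc32a1, had the highest sum. Droplets holding 2 nuclei were not called here, and the part of such droplets or of free RNA in these levels was not tested.

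Of 4 tested periglomerular markers none was called, and Slc6a3, the dopamine transporter, was at 0 in ET4. Their sum was 45.5, 81.8 and 41.9 CPM, within the means of the other subclusters (40.5 to 206 CPM). Of 7 astrocyte markers Aldh1l1 (16.7, 7.87 and 15.4 CPM) was called higher and Slc1a2 (14, 16.1 and 16.8 CPM) lower, and the sum of 61.4, 59.5 and 63.6 CPM also lay within the range of the others (40.8 to 283 CPM). None of 6 oligodendrocyte and 3 microglia markers was called, with sums of 77.8 to 84.5 CPM (82.8 to 127 CPM in the other means) and 34.7 to 48.2 CPM (38.8 to 54.0 CPM). Of the oligodendrocyte precursor markers, Vcan, a matrix proteoglycan, was called higher (92.1, 74.6 and 50.3 CPM), though M1 had a mean of 242 CPM. Of 5 vascular markers Cldn5 was called higher and Pdgfrb lower, both at levels under 5 CPM in ET4, and Rgs5 was at 0. These small counts moved with single mice: 1 inhibitory gene was lower without mouse 2, 1 periglomerular gene was lower without mouse 2 or mouse 3, 2 astrocyte genes were higher and no precursor gene was without mouse 1, and no vascular gene was higher without any 1 of the 3 mice. With the mouse as a replicate block, with DESeq2, or with subclusters 2 and 8 added to the others, 1 periglomerular gene was lower too.

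Over all genes, 1281 (8.72% of those tested) were called higher and 1370 (9.32%) lower in ET4 than in the mean of the 6 others. Counts over the lists below are to be read beside these shares. For 543 genes (3.69% of those tested) all 3 ET4 libraries lay above all 18 others and the gene was called higher, and for 319 (2.17%) they lay below and it was called lower. Of these, 481 and 309 reached a mean of 10 CPM. Of these 481 and 309 genes, 57 and 37 bear symbols of the Gm type or similar and were left out of the ranking that follows. The 25 higher genes with the largest differences among the rest are described by kind. For 5 of them (Pip5k1bos, Nnmt, Kif7, Kirrel and Hapln3) at least 1 other subcluster had no UMI, so that the fitted difference depends on the small count the fit adds, and their levels are given instead.

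Membrane channels and their partners formed a first kind. Trpc6 (chr9:8544142-8680741 on the GRCm38 build, + strand) and Trpc7 (chr13:56773113-56895993) encode cation channels opened downstream of phospholipase C. Trpc6 stood at 402, 391.9 and 316 CPM in ET4, and no other library passed 27.1 CPM (5.87 ± 0.22). Trpc7 stood at 776, 645 and 610 CPM, with at most 68.6 CPM elsewhere (4.93 ± 0.15). Neither gene overlapped with any other library. Kcnmb2 (chr3:31902507-32200180), an inactivating subunit of the large-conductance calcium-activated potassium channel, stood at 296, 412 and 419 CPM against at most 40.6 CPM (4.91 ± 0.17). Shisa6 (chr11:66211725-66525964, - strand), an auxiliary subunit of AMPA receptors, stood at 4185, 4548 and 4412 CPM. It was shared with ET2, whose mean was 2137 CPM, and its difference of 0.99 ± 0.41 from ET2 was not called.

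A pair of the 25 genes belong to the Tmem132 family of single-pass membrane proteins. Tmem132d (chr5:127781630-128433077, - strand) stood at 8550, 7212 and 7193 CPM, with 904 CPM in ET1 and 22.5 to 73.8 CPM in the other means (6.63 ± 0.26). Tmem132c (chr5:127241808-127565793, + strand) stood at 453, 500 and 474 CPM, against 93.7 CPM in ET1 and at most 10.1 CPM in the other means (6.03 ± 0.17). Its antisense gene Tmem132cos stood at 140, 155 and 126 CPM (5.98 ± 0.18). The same order of subclusters, ET4 then ET1, held for all of them. Tmem132cos lies within Tmem132c and Pip5k1bos within Pip5k1b on opposite strands, and with the strand of counting not stated their reads may not be told apart. Pip5k1bos (chr19:24416009-24430329) stood at 25.5, 22.8 and 23.8 CPM in ET4 and 8.22 CPM in ET1, and had at most 0.12 CPM in the other means.

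Surface and matrix genes formed another kind. Itga8 (chr2:12106632-12301922), an integrin subunit, stood at 228, 192 and 165 CPM against at most 18.2 CPM in any other library (5.89 ± 0.18). Fbn1 (chr2:125300594-125507993), the microfibril protein fibrillin, stood at 62.6, 39.9 and 44.7 CPM against at most 5.10 CPM (4.84 ± 0.22). Kirrel (chr3:87078593-87174747), an adhesion protein of the immunoglobulin superfamily whose relatives sort olfactory axons, stood at 21.5, 25.2 and 32.8 CPM, with 4.64 CPM in M3 and 4.36 CPM in ET1. None of these reached its ET4 level in another library. Hapln3 (chr7:79115102-79131018), a link protein of hyaluronan matrix, stood at 84.5, 61.3 and 74.7 CPM and was the named gene nearest to ET1, with a mean of 35.5 CPM there and no call between ET4 and ET1. St6galnac5 (chr3:152817081-152982246), a sialyltransferase of gangliosides, stood at 192, 256 and 275 CPM, and the highest other mean was 48.7 CPM in M1 (4.79 ± 0.21).

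Of the enzymes and signalling proteins, Vsnl1 (chr12:11325242-11436613), the neuronal calcium sensor visinin-like 1, stood at 3912, 3667 and 3056 CPM against at most 408 CPM elsewhere (5.15 ± 0.21). Igfbp2 (chr1:72824503-72852474), a binding protein of insulin-like growth factors, stood at 1032, 695 and 620 CPM against 176 CPM in ET1 (4.82 ± 0.19). Nnmt (chr9:48591877-48605153), which methylates nicotinamide, stood at 27.9, 8.21 and 9.78 CPM and at 1.32 CPM or less in every other library. Mouse 1 lay above mice 2 and 3 for each of these 3 genes. Siah3 (chr14:75455982-75529708), of the Siah ubiquitin ligase family, stood at 208, 178 and 143 CPM (5.61 ± 0.20). Skap1, an adaptor of Src family kinases, stood at 149, 104.7 and 122 CPM (4.82 ± 0.19), and Synpo2, an actin-binding protein, at 132, 151 and 139 CPM (5.36 ± 0.16). Mro (244, 208 and 196 CPM, 4.83 ± 0.15) and Cyp2d22, a cytochrome P450 (31.1, 25.7 and 23.8 CPM, 4.82 ± 0.35), complete this group. Kif7, a kinesin of the Hedgehog pathway (14.8, 13.5 and 18.2 CPM), and Ticrr, a DNA replication factor (23.5, 18.3 and 18.2 CPM), stood at under 2 CPM in every other library. The 2 genes meet end to end on chromosome 7 (79698098-79715720 and 79660196-79698148), with overlapping ends, so that their reads are uncertain.

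On the lower side, Ptpn20, a tyrosine phosphatase (chr14:33589207-33640754), had no UMI in any ET4 library, while the mean of the other libraries was 31.9 CPM. With 3 counts over the whole group as the floor, it was at least 104-fold lower. Sema3a (chr5:13125414-13602565), a secreted axon repellent, stood at 10.4, 8.38 and 9.78 CPM, and no other library had less than 98.0 CPM (-5.51 ± 0.37). Galntl6 (chr8:57774052-58912640), of the glycosyltransferases that start O-linked glycans, stood at 190, 180 and 213 CPM against 1389 to 18390 CPM (-5.46 ± 0.18). For Sema3a and Galntl6 the gap between ET4 and the nearest library was several-fold, while the lowest other library for Ptpn20 stood at 1.81 CPM. Kif26b, an atypical kinesin (chr1:178529125-178939200), stood at 19.1, 10.8 and 11.9 CPM against 107 CPM or more (-5.30 ± 0.23). Vmn1r206, a vomeronasal receptor gene, had UMIs in mouse 2 alone (3.08 CPM) and means of 25.6 to 155 CPM in the other subclusters (-5.39 ± 0.32).

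The remaining lower genes include 3 transcriptional regulators. Sox5 (chr6:143828425-144781977), an SRY-box factor, stood at 25.1, 26.7 and 22.4 CPM against 119 CPM or more, with its highest mean of 1542 CPM in M1 (-4.42 ± 0.22). Sox5os4, which lies within Sox5 on the other strand, was lower as well (3.19, 4.62 and 0.699 CPM, -4.96 ± 0.26). Tshz2, a zinc finger homeobox factor (chr2:169633013-170071816), stood at 52.2, 38.2 and 44.7 CPM against 373 to 1936 CPM (-4.70 ± 0.17). Rreb1, a zinc finger factor of the Ras pathway, stood at 3.99, 4.79 and 3.49 CPM against 33.5 CPM or more (-4.70 ± 0.18). None of these overlapped with another library. Dysf, the membrane repair protein dysferlin (2.39, 0.856 and 1.4 CPM, -4.89 ± 0.34), Miat, a nuclear long noncoding RNA (3.19, 1.37 and 2.10 CPM, -4.74 ± 0.31), Samd9l (-4.95 ± 0.45), AU023762 (-4.91 ± 0.57) and Hspb3 (-4.64 ± 0.39) stood near 0 in ET4.

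Across genes, the profile of ET4 was closest to that of ET1. The correlation of log2(CPM + 1) between the ET4 and ET1 libraries of a mouse was 0.904, 0.935 and 0.896, while that with T1 was 0.838, 0.876 and 0.854. With ET2, which shares the external tufted name, it was 0.807, 0.867 and 0.809. With M3 it was 0.836, 0.891 and 0.832, above ET2 in each mouse and above T1 in mouse 2. With M2 it was 0.818, 0.857 and 0.831, and with M1 0.744, 0.862 and 0.8185. Libraries share mice and depth, and genes are not independent replicates, so these values are a description. Among the 3 ET4 libraries the correlation ran from 0.957 to 0.975.

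The contrast with ET1 shows what separates ET4 from the subcluster closest to it. ET4 was higher for 872 genes (5.93%) and lower for 1087 (7.4%). Without TMM scaling, which moves the median of all genes by 0.17 on the log2 scale here, the split was 1250 higher and 887 lower. The study's ET4 list was higher than in ET1 for 7 of 7 genes, a list chosen on these samples and so not independent of them. Trpc6 (5.14 ± 0.39), St6galnac5 (5.10 ± 0.39) and Kcnmb2 (4.52 ± 0.31) differed from ET1 by more than Ly6g6e (3.22 ± 0.38) and Pip5k1b (1.44 ± 0.23). Of the study's ET1 list, 5 of 7 tested genes were lower in ET4 than in ET1 and 0 higher. Coch, a secreted cochlin, stood at 47.4, 64.9 and 71.3 CPM in ET4 and at a mean of 182 CPM in ET1. Wnt5b (96.5, 86.4 and 73.4 CPM, 192 CPM in ET1) and Chst9, a sulfotransferase (56.6, 61.3 and 63.6 CPM, 224 CPM in ET1), followed the same order. Against the mean of all 6 others, however, 5 of the same 7 ET1 genes were higher in ET4. Rorb, a nuclear receptor of that list, stood at 63.0, 65.5 and 70.6 CPM in ET4 and at 247 CPM in ET1.

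ET2 differed from ET4 at more genes, with 1345 higher (9.15%) and 1585 lower (10.8%) in ET4. All 9 tested genes of the study's ET2 list were lower in ET4 than in ET2, again a list chosen on these samples. Trp73, a relative of p53, stood at 0, 0.684 and 0.699 CPM in ET4 and at 186 CPM in ET2. Ebf2 (0, 0.684 and 0 CPM, 144 CPM in ET2) and Nr2f2 (0.399, 1.71 and 2.79 CPM, 156 CPM in ET2), both transcription factors, were as sparse. Grik4, a kainate receptor subunit on the study's ET4 list, went the other way: it stood at 100, 84.5 and 100.6 CPM in ET4 but at 317 CPM in ET2, and was lower in ET4 by 1.79 ± 0.20. It was higher than in ET1 by 4.24 ± 0.28. The other 6 genes of that list had their highest level in ET4, among them Galnt12 (146, 132 and 124 CPM, 4.69 ± 0.14) and Ets2 (111, 73.8 and 95.7 CPM, 3.91 ± 0.18).

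Against T1, the largest tufted subcluster, ET4 was higher for 1842 genes (12.5%) and lower for 1779 (12.1%). Without TMM scaling, which shifts the median by 0.21, these became 2455 and 1401. The study's tufted genes Zbtb20 (3883, 3876 and 3461 CPM), a zinc finger repressor, and Astn2 (3114, 3257 and 3138 CPM), a neuronal migration protein, were both higher in ET4 than in the mean of the 6 others. Zbtb20 lay above all other libraries, with ET1 next at 2366 CPM. Astn2 did not stand apart, since ET1 had 3155 CPM and ET2 3089 CPM. The external tufted genes of the study, a list chosen on these samples, are Gabbr2, Shisa6 and Pip5k1b. All 3 were higher in ET4 than in the mean of the 6 others. Pip5k1b, also a marker given with ET4, stood at a mean of 32.7 CPM in ET2 and 60.6 CPM in M3. The study's markers of other types were also set against the mean of the 6 others. Higher in ET4 were 0 of 14 for M1, 1 of 11 for M2 and 0 of 10 for M3. For T1 and ET2 the higher genes were 0 of 8 and 0 of 9. Lower were 6, 7, 2, 5 and 3 in the same order. The ET1 list went the other way, with 5 of 7 higher and 0 lower. Without mouse 2 the lower genes were 2 for M1, 1 for M3 and 3 for T1, and 1 M1 gene was higher. Without mouse 1 the lower ET2 genes were 0. With the others summed per mouse, 8 T1 genes and 8 ET2 genes were lower.

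**Figure D3:**
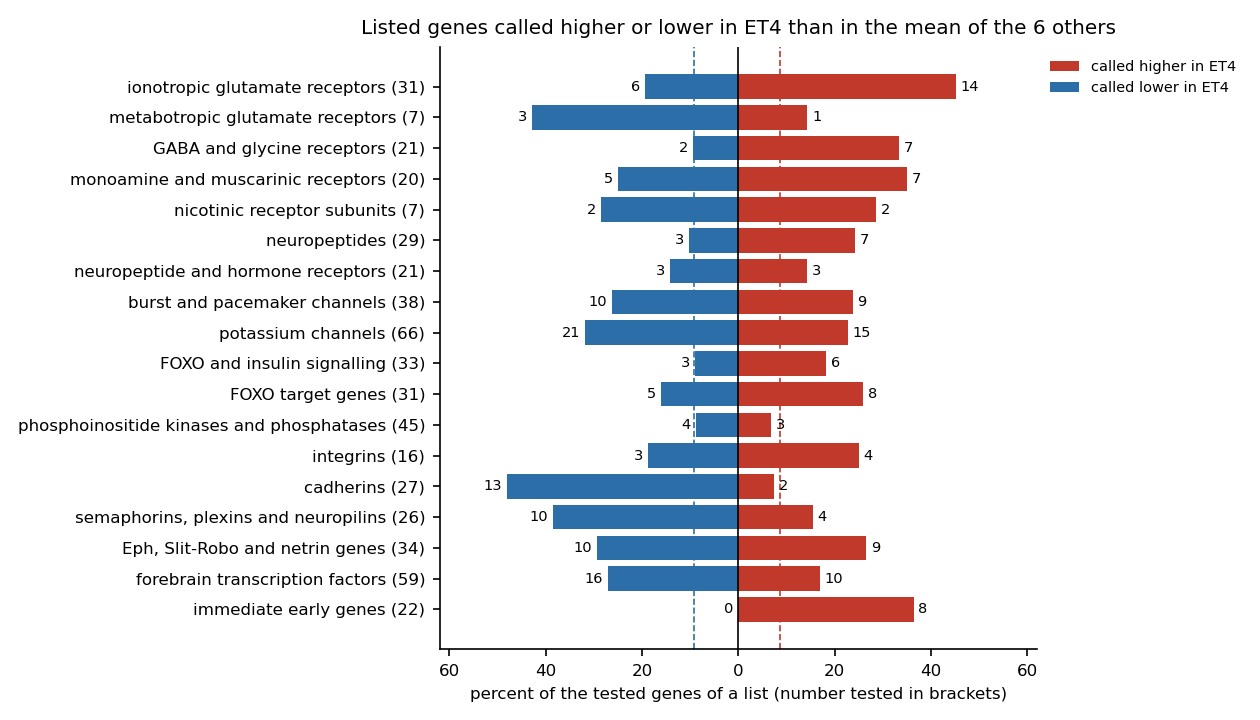
Percent of the tested genes of each list called higher or lower in ET4 than in the mean of the 6 other subclusters, with the number of genes beside each bar. The dashed lines give the percent of all tested genes called (8.72% higher, 9.32% lower); the ionotropic glutamate receptor and immediate early gene lists lie to the higher side and cadherins to the lower.

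External tufted cells are known for bursting, and the channels tied to it were read as a list. Of 38 tested genes 9 were called higher and 10 lower, beside 8.72% and 9.32% of all genes. Their median log2 difference was 0.10 against 0.01 for all genes. Among the HCN channels, which are opened by hyperpolarisation, Hcn2 (94.1, 86.2 and 103 CPM) lay above all other libraries by less than the size of a call (0.89 ± 0.12), and Hcn4 (4.78, 3.08 and 5.59 CPM) was called lower (-1.46 ± 0.31). Hcn4 overlapped with M1, ET2 and M3, whose lowest libraries stood at 3.59, 4.94 and 5.30 CPM. Hcn3 (28.3, 31.1 and 25.1 CPM) was not called.

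The 3 genes of low-threshold (T-type) calcium channels, which help start bursts, lay on both sides. Cacna1i stood at 230, 202 and 203 CPM in ET4 and at no more than 28.9 CPM in any other library (4.63 ± 0.18). Cacna1g stood at 1.20, 2.40 and 0 CPM, against 37.9 CPM in ET2, 29.2 CPM in T1 and 11.5 CPM in ET1 (-2.67 ± 0.43), and overlapped with M1 and M2, whose means were 2.33 and 2.11 CPM. Cacna1h stood at 1.20, 2.05 and 0 CPM, against 43.4 CPM in T1 and 24.2 CPM in M2 (-2.79 ± 0.36), while ET1 and M1 were also low at 3.29 and 2.38 CPM. Cacna1i lay above all other libraries. At 3000 UMIs it was found in 39.3% of ET4 nuclei and 13.8% of nuclei outside the projection neurons.

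High-threshold calcium channel genes of the same list lay on both sides. Cacna1a, the P/Q-type pore, stood at 245, 234 and 272 CPM against at least 535 CPM (-1.77 ± 0.12). Cacna1b, the N-type pore, stood at 58.6, 81.3 and 74.0 CPM against at least 92.3 CPM (-1.48 ± 0.12). Cacnb4, a beta subunit, stood at 236, 255 and 282 CPM against at least 683 CPM (-2.60 ± 0.15). These 3 genes lay below every other library. Cacna1e (-1.42 ± 0.19) and Cacna2d1 (-1.05 ± 0.14) were also called lower. Cacna1d, an L-type pore, stood at 1116, 1008 and 1143 CPM, above every other library (at most 748 CPM), with a difference of 0.70 ± 0.08 that was under the size of a call.

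Further TRPC cation channel genes were called. Besides Trpc6 and Trpc7, Trpc4 (275, 280 and 236 CPM) and Trpc5 (296, 195 and 253 CPM) were called higher (3.12 ± 0.20 and 2.17 ± 0.11), and ET2 had still higher means of 330 and 351 CPM, overlapping with ET4 for Trpc5. Trpc1 (80.9, 100.96 and 114 CPM) was not called. The sodium channel Scn1a (396, 345 and 374 CPM) was not called, and Scn3a was lower (37.1, 37.0 and 41.2 CPM, -1.67 ± 0.12).

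**Figure D4:**
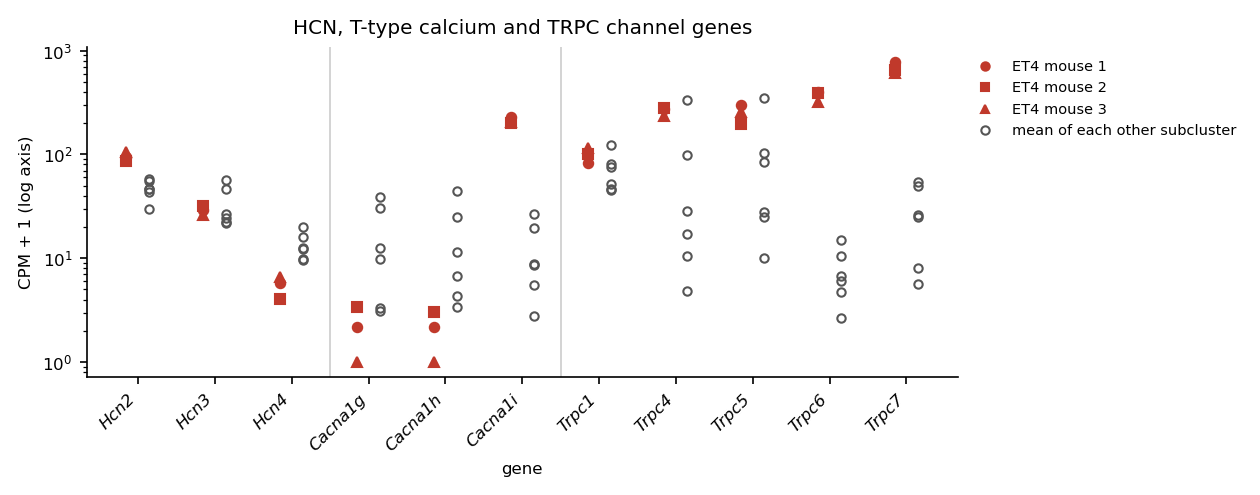
Level of HCN, T-type calcium and TRPC channel genes, as CPM + 1 on a log axis, with the 3 ET4 libraries as filled red points and the mean of each other subcluster as an open circle. Cacna1i, Trpc6 and Trpc7 lie above all other subclusters, and Cacna1g and Cacna1h lie near 0 in ET4 and in some of the other subclusters.

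Of 66 tested potassium channel genes 15 were called higher and 21 lower (median -0.38), beside 8.72% and 9.32% of all genes. Kcnip4, a calcium-binding partner of A-type channels, stood at 24638, 32436 and 31012 CPM, against 8795 CPM in ET1 and 270 CPM in ET2 (3.40 ± 0.16). Kcnd2, an A-type pore, stood at 3716, 4334 and 4178 CPM (1.35 ± 0.13), while its relative Kcnd3 stood at 7.97, 14.7 and 11.2 CPM against at least 32.5 CPM (-3.13 ± 0.19). These pores were thus called on opposite sides. Kcnh7, an ERG-type channel, stood at 5779, 6102 and 4788 CPM against at most 1098 CPM (3.32 ± 0.12), and its relatives Kcnh2 (75.8, 45.2 and 50.3 CPM, 1.68 ± 0.14) and Kcnh6 (47.4, 37.3 and 33.5 CPM, 1.57 ± 0.16) were called higher too. Kcna1, a low-threshold pore, stood at 81.7, 90.9 and 68.5 CPM against at most 35.2 CPM (3.09 ± 0.23). Kcna5 stood at 45.5, 20.4 and 23.8 CPM against at most 5.45 CPM (4.21 ± 0.30).

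For the large-conductance channel, the pore and a subunit went apart. Kcnma1, its pore, stood at 404, 369 and 363 CPM against at least 561 CPM (-1.58 ± 0.10), while Kcnmb2 was among the 25 higher genes named above. Kcnb2, a delayed rectifier, stood at 39.1, 115 and 41.9 CPM, below all other libraries (at least 126 CPM) and farthest below ET2 at 2586 CPM (-2.32 ± 0.28). Kcnk9, a leak channel, stood at 0.797, 2.57 and 1.4 CPM (-3.41 ± 0.30). Mouse 2 was the highest ET4 library for both Kcnb2 and Kcnk9, as for Gad1.

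Ionotropic glutamate receptors were called on both sides, and more often higher. Of 31 tested ionotropic subunits and partners 14 were called higher and 6 lower, beside 8.72% and 9.32% of all genes. Their median was 0.34. Grin2a, an NMDA receptor subunit, stood at 555, 509 and 486 CPM against 211 CPM in ET1 and 5.61 CPM in T1 (3.87 ± 0.22). Gria3, an AMPA receptor subunit, stood at 232, 238 and 203 CPM against at most 139 CPM (2.66 ± 0.29). Both lay above all other libraries. Gria1 (1160, 1107 and 1074 CPM) and Gria4 (6858, 7770 and 6553 CPM) were high in ET4 and ET1 alike, with ET1 means of 1297 and 5782 CPM. Among the auxiliary subunits, Shisa9 (3822, 3836 and 3297 CPM, 3.02 ± 0.14), Cacng2 (249, 223 and 235 CPM, 1.72 ± 0.10) and Cacng3 (122, 131 and 102 CPM, 3.3 ± 0.25) lay above all other libraries. Cacng5 (14.8, 19.2 and 21 CPM, -2.57 ± 0.16) lay below them.

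Of the metabotropic glutamate receptors, 3 that act mainly at presynaptic sites were lower in ET4. Grm7 stood at 379, 411 and 657 CPM against 2284 to 5674 CPM (-3.13 ± 0.20). Grm8 stood at 145, 128 and 170 CPM against at least 546 CPM (-4.01 ± 0.16). Grm4 stood at 1.59, 3.08 and 0.699 CPM (-2.21 ± 0.45). Over the list, 1 of 7 was higher (Grm3) and 3 lower, beside 8.72% and 9.32% of all genes. Without mouse 2 the counts became 0 and 4.

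Of 21 receptor genes for GABA and glycine 7 were called higher and 2 lower, beside 8.72% and 9.32% of all genes. Gabbr2, a subunit of the GABA-B receptor, stood at 124, 132 and 119 CPM against 75.1 CPM in ET2 and 54.5 CPM in ET1 (3.34 ± 0.13). Its partners Kctd8 (306, 359 and 428 CPM, 2.15 ± 0.18) and Kctd16 (234, 356 and 365 CPM, 2.03 ± 0.24) were called with it, Kctd8 without overlap and Kctd16 overlapping with T1. The glycine receptor subunit Glra3 stood at 73.0, 43.6 and 53.8 CPM against at most 33.2 CPM (3.16 ± 0.20). Gabra4 (7.18, 8.56 and 9.08 CPM) and Gabrg3 (9.97, 7.19 and 10.5 CPM) were lower, with Gabrg3 at 1399 CPM in ET2.

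Neuropeptides and granins were called higher for 7 of 29 genes and lower for 3, beside 8.72% and 9.32% of all genes. Nmb, neuromedin B, stood at 429, 188 and 238 CPM against at most 68.0 CPM (2.57 ± 0.16). Nxph4, a ligand of neurexins, stood at 279, 162 and 179 CPM against at most 131 CPM (3.56 ± 0.19). Cartpt, the precursor of CART peptides, stood at 26.3, 15.6 and 16.1 CPM against at most 8.06 CPM (3.43 ± 0.38). Mouse 1 was the highest for all 3 genes. Cck, the cholecystokinin of superficial tufted cells, stood at 1125, 668 and 541 CPM and did not separate ET4, since ET1, T1 and M3 had means of 595, 688 and 775 CPM. Adcyap1, the PACAP precursor, was lower (5.98, 3.59 and 13.3 CPM, -1.65 ± 0.34).

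Among receptors for amines and acetylcholine, 7 of 20 genes were higher and 5 lower, beside 8.72% and 9.32% of all genes. Lower were 3 without mouse 1 and 2 without mouse 2. Adrb1, a beta adrenergic receptor, stood at 58.2, 59.9 and 46.1 CPM against at most 24.5 CPM (2.34 ± 0.15). Htr5b, a serotonin receptor, stood at 29.1, 18 and 26.5 CPM against at most 12.1 CPM (3.39 ± 0.26). Htr2a, the serotonin receptor with the opposite pattern, stood at 5.98, 5.13 and 9.08 CPM against 16.6 to 77.2 CPM in the other means (-2.48 ± 0.29). Of 21 receptors for peptides and hormones, 3 were higher and 3 lower. Oprm1, the mu opioid receptor, stood at 77.0, 61.3 and 48.2 CPM, and M1 had a mean of 67.4 CPM.

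Ly6g6e belongs to a cluster of Ly6 genes on chromosome 17 (Ly6g6e at chr17:35076902-35078804, + strand). Of 10 tested Ly6 genes 3 were higher and 0 lower (median 0.59), beside 8.72% and 9.32% of all genes. These 3 are neighbours. Ly6g6e, a marker given with ET4, is 1 of them, so the count is not independent of that choice. Without TMM scaling 5 were higher, and with subclusters 2 and 8 added to the others 1 was higher and 1 lower. Ly6g6d stood at 4.78, 4.79 and 0 CPM and Ly6g6f at 9.57, 4.62 and 4.19 CPM, each at 3.59 CPM or less in every other library. Ly6g6e and Ly6g6d overlap, so their reads may be shared. Of 7 nicotinic receptor subunits, the receptors that other Ly6 proteins bind, Chrna7 (30.3, 23.8 and 25.1 CPM, 1.12 ± 0.23) and Chrna4 (9.57, 4.28 and 2.10 CPM, 3.34 ± 0.47) were higher, and Chrna3 (1.20, 0.513 and 0.699 CPM, -3.11 ± 0.50) and Chrnb4 (0, 0.342 and 0 CPM, -2.59 ± 1.01) lower. Without mouse 1 there was 1 on each side, without mouse 2 none was lower and without mouse 3 there was 1 lower. Chrna7 lay above all other libraries, while Chrna4 was higher in ET2 at 20.7 CPM.

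Foxo1 acts at the end of insulin and insulin-like growth factor (IGF) signalling, so that pathway was read from ligand to target. Of 33 tested genes 6 were higher and 3 lower (median 0.27), beside 8.72% and 9.32% of all genes. Foxo1, a marker given with ET4, is among the 6, so the count is not independent of that choice. The split was 9 and 1 without TMM scaling, and 8 and 5 with the others summed per mouse. Igf1, the ligand, stood at 787, 707 and 824 CPM against 404 CPM in ET1 and 52.3 to 247 CPM in the other means (2.31 ± 0.13). Igfbp2, which binds the ligand, is described above, and Igfbp5 was lower (13.6, 11.8 and 16.8 CPM, -2.07 ± 0.21). Both Igf1 and Igfbp2 lay above all other libraries. The receptors Igf1r (163, 146 and 158 CPM, -0.70 ± 0.11) and Insr (122, 110 and 112 CPM, 0.39 ± 0.10) were not called. Irs2, an adaptor, was called higher (6.38, 10.6 and 16.1 CPM, 1.05 ± 0.31).

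The kinases downstream went apart. Sgk1, a kinase that phosphorylates FOXO factors, stood at 300, 346 and 383 CPM against at most 151 CPM (3.31 ± 0.12), and Sgk3 stood at 178, 184 and 174 CPM against at most 106 CPM (2.0 ± 0.14). Both lay above all other libraries. Pik3cd, a phosphoinositide 3-kinase, was called lower (5.18, 6.33 and 2.79 CPM, -1.06 ± 0.23). The FOXO relative Foxo3 (68.2, 65.2 and 76.8 CPM, 0.46 ± 0.12) was not called. Of 45 phosphoinositide kinases and phosphatases 3 were higher and 4 lower, beside 8.72% and 9.32% of all genes. Without mouse 1 the counts were 1 higher and 7 lower. Pip5k1b, itself a marker given with ET4, was the only one of these 45 above 10 CPM that was higher. The other higher genes, the phospholipases Plcb2 and Plcd1, stayed under 5 CPM. Plcl1, a related protein without catalytic activity (23.1, 26.4 and 28.6 CPM, -2.13 ± 0.20), and Inpp5j, a phosphatase (17.1, 28.1 and 15.4 CPM, -1.33 ± 0.16), were among the lower genes.

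Of 31 tested genes listed as FOXO targets, 8 were higher and 5 lower, beside 8.72% and 9.32% of all genes. Their median was -0.08. The higher genes include Ppargc1a, a coactivator of mitochondrial genes (364, 360 and 348 CPM against at most 197 CPM, 1.96 ± 0.09). They also include the antioxidant enzymes Sod2 (154, 136 and 128 CPM, 1.28 ± 0.10) and Prdx3 (57.4, 45 and 43.3 CPM, 1.44 ± 0.13), and the cell cycle inhibitor Cdkn1b (46.3, 40.9 and 34.9 CPM, 1.34 ± 0.15). The lower genes were Bcl6, a repressor (-1.62 ± 0.17), Klf6 (-1.70 ± 0.20), Ccnd2 (-1.65 ± 0.39), Bcl2l11 (-1.31 ± 0.36) and Fbxo32 (-1.40 ± 0.27). Without mouse 3 the list had 4 genes called higher and 5 lower.

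The letters that FOXO factors bind were looked for in the 250 bases before the start of each gene (RefSeq, GRCm38.p6). TGTTTAC or its reverse complement GTAAACA was present in 6 of 326 matched promoters (1.84%) of the 481 higher genes without overlap, in 5 of 216 (2.31%) of the 309 lower genes, and in 288 of 10761 (2.68%) of all tested genes. None of the 16 matched promoters of the 25 named genes held it. A match is a description of the sequence and not a bound site. The matches in higher genes with a gene symbol are shown so that their surroundings can be compared. They are written along the strand of the gene with the motif in capitals.
Dlgap1: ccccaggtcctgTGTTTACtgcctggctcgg
Dmac2: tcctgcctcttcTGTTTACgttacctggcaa
Mrpl40: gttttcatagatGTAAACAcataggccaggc
Rmnd5a: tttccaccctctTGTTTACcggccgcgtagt
Stard5: ccaagggGTAAACAtccaaactcctt

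These windows lie at chr17:70561713-70561743 (+ strand), chr7:25619411-25619441 (+), chr16:18876775-18876805 (-), chr6:71440752-71440782 (-) and chr7:83631767-83631792 (+), in the order shown. The motif of Dlgap1, a postsynaptic scaffold, starts 22 bases before the RefSeq start used, which lies within the gene's span of chr17:69969073-70821413. Dlgap1 stood at 6450, 7863 and 7830 CPM in ET4 against at most 5264 CPM (1.45 ± 0.12). Stard5, a sterol transfer protein, stood at 580, 560 and 506 CPM against at most 273 CPM (3.55 ± 0.13). Stard5 thus had the largest difference of these 5 genes. Rmnd5a (268, 217 and 179 CPM, 1.12 ± 0.09), Dmac2 (62.2, 68.8 and 72.7 CPM, 1.04 ± 0.13) and Mrpl40 (49.8, 42.1 and 48.9 CPM, 1.13 ± 0.16) differed by little more than the size of a call. They were named for the motif, after their values were known.

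The motifs of 4 other families were counted over the same windows and both strands. TGANTCA, which AP-1 factors bind, was in 24 promoters (7.36%) of the higher genes, 19 (8.80%) of the lower genes and 5.33% of tested genes. TGACGTCA, of the cAMP response element, was in 13 (3.99%), 3 (1.39%) and 3.03%. CCGGAAGT, of ETS factors, was in 9 (2.76%), 5 (2.31%) and 6.25%, and TCACACCT, of T-box factors, in 5 (1.53%), 1 (0.463%) and 0.911%. The AP-1 letters were no rarer before lower genes than before higher genes.

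Transcription factors themselves were called higher for 10 of 59 listed genes and lower for 16 (median -0.12), and for 10 and 10 without mouse 1. The shares over all genes were 8.72% and 9.32%. Bcl11b, a zinc finger factor of subcortical projection neurons, stood at 627, 470 and 470 CPM against at most 210 CPM (2.26 ± 0.12). Nfix, of the nuclear factor I family, stood at 54.2, 39.5 and 39.8 CPM against at most 15.7 CPM (2.95 ± 0.22), while its relative Nfib was lower (5.98, 14.9 and 4.19 CPM, -1.22 ± 0.25). Etv1 (100, 117 and 96.4 CPM, 2.16 ± 0.16) and Ets2 of the ETS family, and the helix-loop-helix factor Neurod2 (43.9, 37.1 and 37.0 CPM, 3.58 ± 0.19), lay above all other libraries. Neurod2 had its next highest mean in ET1, at 19.98 CPM. On the lower side, Lhx5, a LIM homeobox factor, had no UMI in ET4 and stood at 22.5 CPM in ET2 and 16.6 CPM in M1. Ebf1 stood at 1.20, 6.16 and 2.79 CPM, against 1840 CPM in M1 and 409 CPM in ET2. Tshz3 (5.18, 4.45 and 7.68 CPM, -2.72 ± 0.27) accompanied Tshz2.

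The study's list of 5 regulators of ET4, drawn from these samples, had 4 genes called higher and 0 lower, namely Hmgb3 (77.0, 44.5 and 51.7 CPM, 1.56 ± 0.26), Ppargc1a, Junb and Fos. Junb and Fos are immediate early genes, which neurons switch on with activity. Of 22 tested immediate early genes 8 were higher and 0 lower, beside 8.72% and 9.32% of all genes. Their median was 0.76, and the counts were 7 and 1 without mouse 2. Fos stood at 23.9, 33.0 and 53.1 CPM against at most 31.8 CPM (1.46 ± 0.34), and its lowest ET4 library overlapped with ET2 and M3. Junb stood at 46.3, 49.1 and 49.6 CPM, and its highest other library reached 61.9 CPM (1.46 ± 0.27). Ier5 (61.0, 58.9 and 48.2 CPM against at most 44.1 CPM, 1.72 ± 0.23) and Nr4a1 (21.1, 22.6 and 34.2 CPM against at most 19.3 CPM, 1.38 ± 0.31) did not overlap with the others. All 13 mitochondrial messenger RNAs were called higher as well, a group singled out after its values were seen. mt-Nd1 stood at 119, 137 and 121 CPM against at most 78.6 CPM (1.81 ± 0.16). The median percent of mitochondrial UMIs was 0.109% per ET4 nucleus and 0.03% to 0.093% in the other subclusters, and M3 exceeded ET4 in mouse 2. RNA outside the nucleus, nuclear quality and activity were not told apart here, and their part in these levels was not tested.

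Adhesion and guidance genes were read as 4 lists, beside 8.72% of all genes called higher and 9.32% called lower. Of 27 tested cadherins and protocadherins 2 were higher and 13 lower (median -0.92), and 1 was higher without mouse 2. Cdh4, R-cadherin, stood at 3183, 2891 and 2768 CPM against 759 CPM in ET2 and 7.12 CPM in T1 (3.64 ± 0.16). Cdh13, T-cadherin, stood at 5.98, 9.92 and 11.2 CPM against at least 19.97 CPM, with 1300 CPM in ET2 (-4.22 ± 0.26). Cdh8 (5.98, 14.4 and 9.78 CPM, -3.33 ± 0.21) and Pcdh11x (177, 92.9 and 142 CPM, -2.17 ± 0.15) were lower too. Cdh4 was above and Pcdh11x below all other libraries, and Cdh8 overlapped with T1. Of 16 integrins 4 were higher and 3 lower, with Itga6 (32.7, 19.2 and 20.3 CPM, 2.42 ± 0.25) and Itgb1, the common beta subunit (187, 194 and 212 CPM, 1.26 ± 0.12), beside Itga8.

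Of 26 semaphorins, plexins and neuropilins 4 were higher and 10 lower. Besides Sema3a, Plxna4, a semaphorin co-receptor, stood at 49.4, 38.5 and 54.5 CPM against at least 80.4 CPM (-2.59 ± 0.13), and Nrp2, the receptor neuropilin 2, at 0.399, 2.91 and 2.10 CPM against 608 CPM in M1 (-4.49 ± 0.41). Sema5b stood at 142, 158 and 272 CPM, and at 394 CPM in ET1. It was called higher than the mean of the others (1.45 on the log2 scale), but its difference was 0.90 without M1, which was not called, and -0.024 with the others summed per mouse. Of 34 Eph, Slit-Robo and netrin genes 9 were higher and 10 lower. Epha10 stood at 195, 227 and 240 CPM against at most 27.5 CPM (4.28 ± 0.15), and Efnb3, an ephrin ligand, at 193, 123 and 115 CPM against at most 80.6 CPM (3.36 ± 0.16). Ntng1, a membrane-anchored netrin, stood at 138, 150 and 145 CPM against at least 690 CPM (-4.32 ± 0.20). Dcc, a netrin receptor (57.4, 63.8 and 85.2 CPM, -2.44 ± 0.21), and Unc5d, another (127, 130 and 177 CPM, -2.34 ± 0.13), were lower as well, while Dcc overlapped with ET1.

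Higher genes often lay next to each other in the genome. Of 1279 placed genes called higher, 509 (39.8%) had an adjacent tested gene also called higher, while 16.1% of all 14682 placed tested genes had such a neighbour. Without overlapping genes and the mitochondrial genome these values were 345 genes (27.0%) and 13.9%. Of 1370 lower genes, 600 (43.8%) had a lower neighbour against 17.0% of all genes, and 417 (30.4%) against 14.6% without overlaps. The Ly6g6e region is one such run: Clic1, Ddah2, Ly6g6d, Ly6g6e and Ly6g6f lie within chr17:35049966-35085610. Ddah2, an enzyme of nitric oxide metabolism, stood at 114, 69.8 and 76.1 CPM against at most 22.4 CPM (3.28 ± 0.16). Clic1, a chloride channel protein, stood at 137, 57.2 and 57.3 CPM, with mouse 1 the highest as for Ly6g6e (2.49 ± 0.25). Other runs held Tmem132b with Tmem132c and Tmem132cos (5 genes, chr5:125531774-127565793), Gabbr2 with Galnt12 (4 genes, chr4:46662305-47414931), and Fosl1 (6 genes, chr19:5422805-5482517). The runs were found after values were seen, and reads running on from a neighbour cannot be told apart from its own.

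Among ET4 nuclei, some genes were found in a few nuclei only. Of 9101 genes measured in all mice, the 15 that varied most beyond counting error were Galntl6, Rasef, Myo3b, Kif26b, Pde1a, Lin28b, Sgcd, Ube2cbp, Thrb, Rgs6, Kcnc2, Nxph1 and 3 with symbols of the Gm type. Their ranks correlated between mice at 0.858, 0.777 and 0.799 over all genes considered, a description in which genes share depth. The 5% of nuclei with the most Galntl6 UMIs held 82.0%, 75.6% and 80% of them in mice 1, 2 and 3. For Ly6g6e the same share was 21.1%, 24.5% and 23.8%, and for Reln 66.7%, 68.7% and 57.9%. For Slc17a7, which is also low in ET4, it was 23.8%, 24.0% and 21.1%, near that of Ly6g6e. Low level and concentration in few nuclei therefore did not go together for every gene. Rasef, a small GTPase, was found in 3.11%, 6.70% and 3.77% of nuclei.

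**Figure D5:**
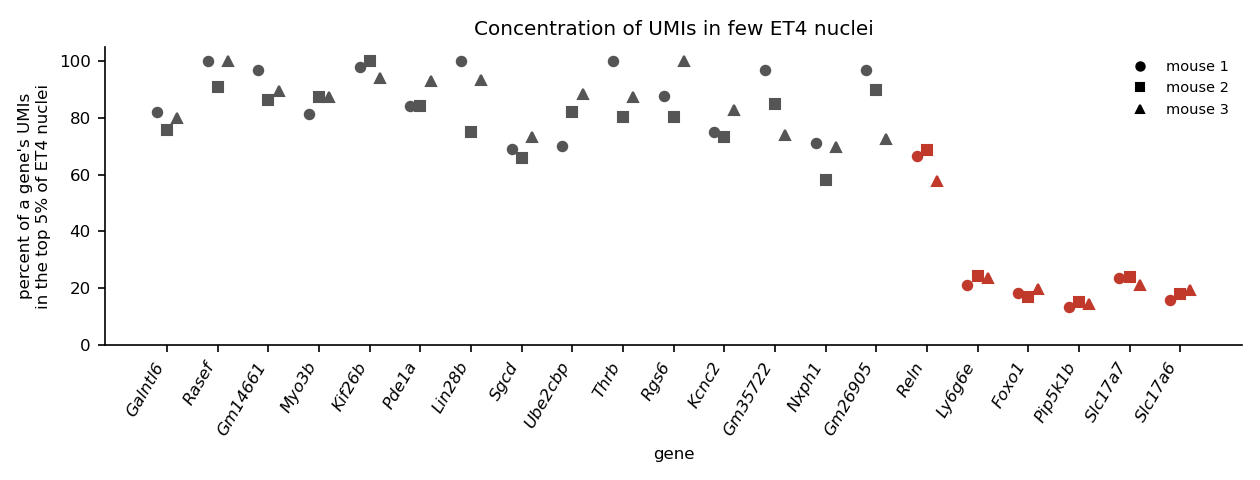
Percent of the UMIs of a gene held by the 5% of ET4 nuclei with the most of them, for each mouse, for the most variable genes and for 6 marker genes. Counting error alone places more than 5% of a sparse gene's UMIs in these nuclei, and the most variable genes were chosen for their spread; Galntl6 lies at 75.6% to 82.0% and Ly6g6e at 21.1% to 24.5%.

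Nuclei with at least 10 Galntl6 UMIs numbered 4, 14 and 4 (1.78%, 2.54% and 3.77% of ET4) and held 74.0%, 67.3% and 75.1% of its UMIs. Galntl6 is abundant in all other subclusters. In these nuclei Reln stood at 460, 495 and 718 CPM, against 47.2, 51.3 and 74.9 CPM in the remaining ET4 nuclei, and Ly6g6e at 547, 265 and 503 CPM against 930, 502 and 571 CPM. Their median depth was 16240, 14840 and 13620 UMIs against 10440, 9868 and 12950. Foxo1 stood at 245, 210 and 330 CPM in them against 404, 366 and 339 CPM. Reln was higher and Ly6g6e and Foxo1 were lower in these nuclei in each mouse, with Foxo1 nearly equal in mouse 3. Slc17a7, which the other subclusters hold at a higher level than ET4, stood at 331, 83.1 and 71.8 CPM against 132, 92.5 and 80.04 CPM, and was thus higher in mouse 1 alone. Whether they are 2 nuclei in 1 droplet was not tested. Gm26905, which lies within Galntl6, followed it, at 705, 360 and 187 CPM in these nuclei, and the reads of the pair may be shared.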

How the data were processed

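Nuclei of 3 mice, 1 library each, were analysed. The deposited matrices give, for each gene and barcode, the whole-number UMI counts as Cell Ranger wrote them (the headers name 3.0.2, the labels mm10 and GRCm38), with no normalization by the authors. The strand of counting is not given in the sources used here. The authors kept nuclei by gene number and by percent of mitochondrial UMIs (deposited beside cluster numbers; at least 1001 genes and at most 4.575% in the table), merged the mice and clustered them in Seurat. No doublet caller was run here. Its 6 further numeric columns were not used.

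Counts were summed per mouse and subcluster. Genes passing filterByExpr (14696 of 31055) were fitted with edgeR 4.0.16 (quasi-likelihood, TMM, no covariate, Benjamini-Hochberg adjustment, R 4.3.3) over 21 libraries, where the study tested single nuclei. SE was taken as the log2 difference over the square root of the F statistic. TMM factors do not enter CPM. The fit was tested on counts simulated without a mouse effect, so that test does not cover the pairing of libraries by mouse. Shares have exact 95% intervals.

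Members and the 39 gene lists were chosen with earlier results of these data known. Some genes are not reported here. Named genes are the 25 higher and 15 lower genes with the largest difference among those called, without overlap between ET4 and the 18 other libraries and at 10 CPM or more, and listed genes. Genes with symbols of the Gm type or similar (57 higher and 37 lower) were left out of this ranking. Genes varying among nuclei are the 15 best ranked for overdispersion at a mean of at least 0.1 UMI. Positions are from GENCODE M21, which matched 30934 genes. The 3 mice are separate animals, so that the mouse pairs the libraries. Deviations from subcluster means correlated at a mean r of 0.075, 0.141 and 0.0913 between libraries of mouse 1, 2 and 3, and at -0.0396, -0.0625 and -0.0497 with those of other mice. The alternatives were a mouse block, DESeq2 1.42.0, no TMM, no filter, thinned nuclei, nuclei with at least 1500 genes, other subclusters in the comparison, and leaving out each mouse.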

Additional observations from a re-analysis of the deposited data

Results flagged for a closer look

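UMIs of the ET4 markers were found in nuclei that the comparisons leave out. Subcluster 2, with 943 nuclei and a median of 20122 UMIs, is listed among the projection neurons and bears no name here. Ly6g6e had a mean of 42.6 CPM there (56.7, 50.2 and 20.9 CPM in mice 1, 2 and 3), Foxo1 28.7 CPM (20.6, 43.7 and 21.9 CPM) and Pip5k1b 171 CPM (152, 277 and 84.5 CPM). All 3 lie below their levels in ET4 and also below the ET1 means of 62.9 CPM for Ly6g6e, 51.3 CPM for Foxo1 and 639 CPM for Pip5k1b. At 3000 UMIs, Ly6g6e was found in 10.7% of subcluster 2 nuclei and 4.3% of nuclei in the astrocyte cluster, and Pip5k1b in 22.1% and 6.6%. Foxo1, at 9.65%, was below the 18.3% of the astrocyte cluster. In the same subcluster Gad1 stood at 287 ± 46.6 CPM and Gad2 at 128 ± 15.4 CPM (SD, n = 3 mice).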

How the results depend on the processing

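Counts of genes called against the 6 others, ET1, ET2 and T1 stayed within 1.5 times of those reported under every alternative run for them except thinning each nucleus to 3000 UMIs (other choices of the compared subclusters were run for the 6 others alone, and counts without overlap were not recomputed), while counts over single lists moved more. Thinned, 1728 genes were called against the 6 others (842 higher, 886 lower), 576 were higher than in ET1, 1953 differed from ET2 (990 lower) and 1173 were lower than in T1; fewer UMIs enter each sum. Marker shares without thinning were 85.3% (Ly6g6e), 86.2% (Foxo1) and 97.6% (Pip5k1b). With the mouse as a replicate block, which pairs the libraries, the counts were 2671 (1277 higher, 1394 lower), 2037 against ET1, 3015 against ET2 and 3616 against T1. The block moved none of these counts by over 1.5 times. Leaving out each mouse in turn gave 2351 to 2437 genes and a mean ET4 share of 11.5% to 15.8%, the highest without mouse 3. With the others summed per mouse the lower genes were 8 of 27 tested neuropeptides, 5 of 21 GABA and glycine receptors and 7 of 20 peptide and hormone receptors. Without M1 the higher genes were 1 of 26 semaphorins, plexins and neuropilins and 5 of 20 immediate early genes, and 5 of 21 with subclusters 2 and 8 added. Thinned, 4 of 23 Eph, Slit-Robo and netrin genes were higher, and 7 of 50 transcription factors were lower. Some genes that had not been called, and Sema5b, changed sign. Against others summed per mouse the log2 difference was 0.20 for Gad1, 0.10 for Slc32a1, -0.024 for Sema5b and -0.11 for Rorb. It was 0.013 for Hcn3 without TMM and 0.053 when thinned, -0.10 for Rorb with DESeq2 and -0.64 for Rgs6 with subclusters 2 and 8 added. Leaving out a mouse gave -0.30 to 0.018 for Gad1 and -0.072 to 0.28 for Rgs6. Without M1, Thrb stood at 0.39. The cause was not tested. Without the M1 subcluster, an alternative chosen after seeing the data, 1167 genes were higher and 1283 lower, and without TMM, which moved the median of all genes by 0.12, 1607 and 1168.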
